A study of Mus musculus with 12 samples.

Results

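The RNAs described here stood near their day 0 level 3 days after a sciatic nerve crush and high at 14 days. They were chosen by a rule on measured values: in the authors' deposited log2 table, the mean at day 14 was at least 2 log2 units above that at day 0, the mean at day 3 lay within 1 log2 unit of day 0, and day 14 was at most 0.5 below day 7. The scanner software also had to find every spot of the probe well above background on all 3 day 14 arrays. Of 90752 probes, 201 met the rule. They form 186 groups once probes that share a run of at least 25 bases on one strand are joined, since 29 of them share one with another member. The array's probes are named MOUSELNCRNA with a number and are 60 bases long. The files pair them with no gene, so RNAs are given by probe number except where a probe lies in a microRNA hairpin. Because the rule used the levels at day 0, 3, 7 and 14 themselves, differences between these days among the members are a description of what was chosen.

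The nerves came from C57Bl6 mice aged about 2 months, whose right sciatic nerve was compressed for 30 s at the upper thigh so that axons were cut while the outer sheath stayed whole. The crush site was then marked with a ligature. The distal 0.5 cm was collected after 0, 3, 7 or 14 days, with no genetic change or drug beyond the anaesthetic in any group, and the labels describe the day 0 nerves with the same surgery. Each of the 4 groups held 18 mice, and RNA of 6 mice was pooled per array, which gave 3 arrays a day that the labels call biological replicates and 12 arrays in all. Below the crush, axons break down, Schwann cells leave the myelinating state and macrophages clear debris. Later, axons grow back and Schwann cells ensheathe and myelinate them again. Long non-coding RNAs are transcripts that are not translated into a known protein, and many are made in few cell types or states. In such whole tissue, more cells of one type and more RNA per cell cannot be told apart.

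Between 64.2% and 79.5% of spots were well above background on an array, and no spot was saturated. Values are log2 signals scaled to the same 75th percentile on every array. Slide 1 carried 2 day 0 and 2 day 3 arrays. Slide 2 carried 1 array each of day 0 and day 3 and 2 of day 7, and slide 3 carried 1 day 7 and all 3 day 14 arrays. No slide held both day 0 and day 14, so the slide effect between these days was reached only through the other days. The lowest signal well above background was 3.38 to 3.99 on the day 0 arrays and 4.50 to 4.58 on those of day 14. The RNAs of myelin, Schwann cells, macrophages and other cell types were not analysed here, because no probe could be tied to such a gene.

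Only 3 members could be named, and their sequences are shown because they locate the RNA that was read. A microRNA gene makes a long primary transcript with a folded hairpin, from which short mature strands are cut. A mature strand pairs with messenger RNAs through its seed, bases 2 to 8. In RefSeq's table for GRCm38.p6, MOUSELNCRNA_76723 lies whole in the Mir23b hairpin (chr13:63300484-63300557, plus strand) and MOUSELNCRNA_81180 shares 49 bases with it and runs past its 3′ end. MOUSELNCRNA_14695 lies whole in the Mir27b hairpin (chr13:63300712-63300784, plus strand). Both hairpins lie within the span of Aopep, a protein-coding gene of the same strand. Capitals mark the bases that the first of these probes and then the last share with their hairpins.
Mir23b: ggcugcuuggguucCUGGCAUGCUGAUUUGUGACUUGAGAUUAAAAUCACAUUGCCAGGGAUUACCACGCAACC
Mir27b: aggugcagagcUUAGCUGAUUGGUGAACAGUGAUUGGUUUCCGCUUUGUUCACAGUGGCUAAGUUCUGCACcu

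The next hairpin of this cluster is Mir24-1, and a second cluster on chromosome 8 holds the related Mir23a, Mir27a and Mir24-2. Their mature strands are shown to compare the clusters, with the seed in capitals. The seed of miR-27b-3p is the same as that of miR-27a-3p, and the seed of miR-23a-3p is present in the Mir23b hairpin, which matches 20 of its 21 bases.
miR-23a-3p: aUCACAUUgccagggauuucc
miR-27a-3p: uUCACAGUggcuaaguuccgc
miR-27b-3p: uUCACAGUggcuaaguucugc
miR-24-3p: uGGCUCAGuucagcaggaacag

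The Mir23b probe MOUSELNCRNA_76723 read 4.14, 4.47 and 4.55 at day 0 and 4.10, 3.95 and 4.32 at day 3. It read 5.93, 5.73 and 5.59 at day 7 and 6.25, 6.13 and 6.37 at day 14. All day 7 and day 14 arrays were thus above all arrays of the first days, and the day 14 array values lay above those of day 7. The Mir27b probe MOUSELNCRNA_14695 read 6.05, 6.05 and 6.29 at day 0, 6.27, 6.02 and 6.44 at day 3, 7.98, 7.70 and 7.79 at day 7, and 8.14, 8.16 and 8.32 at day 14. Its groups separated in the same way, with day 0 and day 3 overlapping. From day 0 to day 14 the log2 difference was 1.87 ± 0.15 (SE, 3 arrays a day) for that Mir23b probe, 2.03 ± 0.16 for MOUSELNCRNA_81180 and 2.07 ± 0.13 for the Mir27b probe. Most of it was there at day 7, at 1.36, 1.43 and 1.69. With a term for slide in the fit, the day 14 differences of these probes were 1.42, 1.40 and 1.66. Their day 7 differences were then 1.10, 1.10 and 1.43. Against the day 7 array on their own slide, the day 14 means were only 0.32, 0.30 and 0.22 higher.

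Further hairpins, none of them read by a member, were looked at after the values of these 3 probes were seen. A second Mir27b probe, MOUSELNCRNA_6370, is the probe nearest below the rule's day 14 threshold and went from 6.64 at day 0 to 8.48 at day 14. The Mir24-1 probe MOUSELNCRNA_87222 rose by a log2 difference of 0.91 at day 7 (limma, adjusted p = 0.00383 over all probes tested) and 1.51 ± 0.20 (SE) at day 14 (limma, adjusted p = 0.00020; with a term for slide in the fit it was 0.0540). In the chromosome 8 cluster, the Mir23a probe MOUSELNCRNA_75746 was already 1.10 higher at day 3, and 1.52 ± 0.37 higher at day 14 (limma, adjusted p = 0.00734). A fixed term for slide left 0.16 of that last difference (limma, adjusted p = 0.763), and on slide 2 alone the day 0 array read 4.26 and the day 3 array 5.87. In the deposited values the Mir23a probe met the day 14 threshold at 2.05 and missed the rule by its day 3 difference of 1.17. The Mir27a probe MOUSELNCRNA_43262 differed by 1.01 ± 0.21 at day 14 (limma, adjusted p = 0.00314). With slide as a block this was 0.33 (limma, adjusted p = 0.516). The Mir24-2 probe MOUSELNCRNA_12232 differed by 0.33 ± 0.15 (limma, adjusted p = 0.0801), with day 14 values of 6.05, 6.10 and 6.20 against 5.99, 5.65 and 5.71. The difference between the clusters was not tested. The Mir23 and Mir27 probes share no run over 20 bases with the hairpin of the other cluster, whereas the Mir24 probes share 28. These probes do not tell a mature strand from the hairpin, from its primary transcript or from an unspliced transcript of Aopep.

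**Figure D1:**
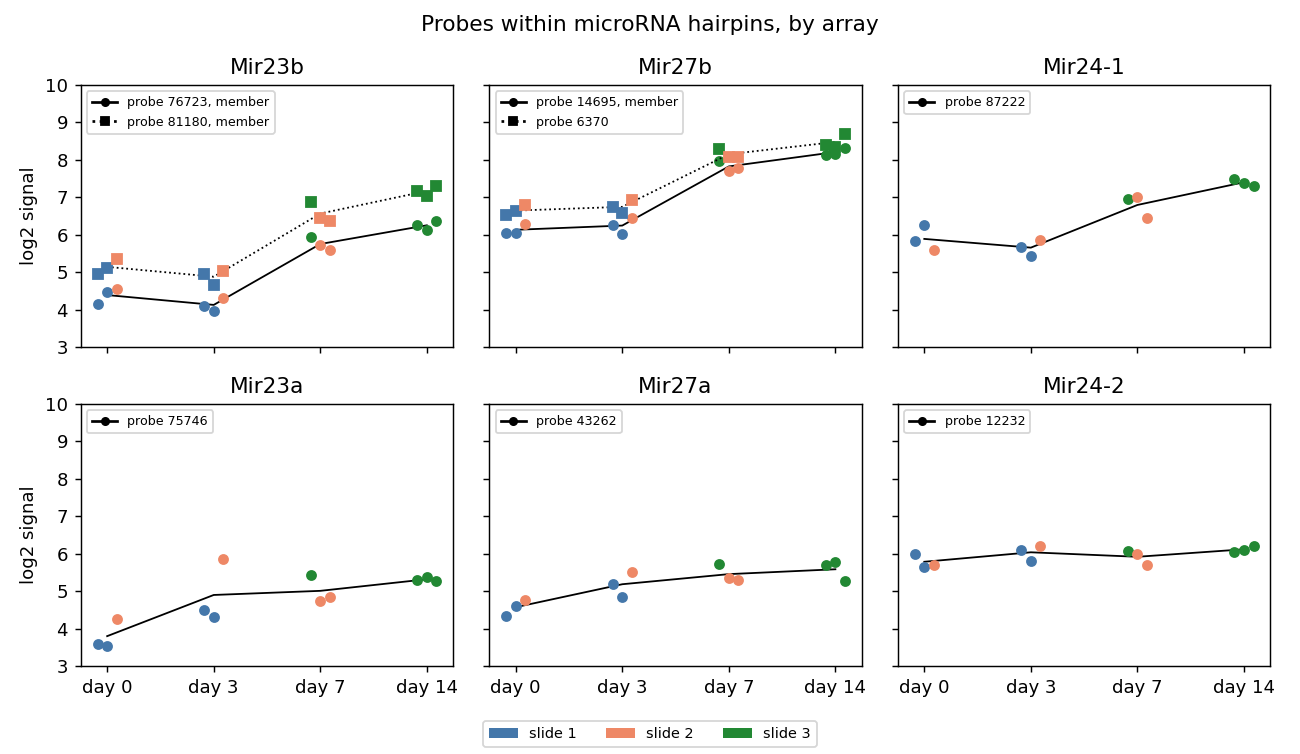
Log2 signal (vertical axis) of probes within 6 microRNA hairpins on the arrays of each day (horizontal axis), 1 point an array, coloured by slide; lines join day means, and dotted lines with squares are a second probe of the same hairpin. The Mir23b and Mir27b probes are level between day 0 and day 3 and higher at day 7 and day 14, while the Mir24-2 probe stays between 5.65 and 6.20.

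Over the array, 1062 probes shared at least 25 bases with a hairpin on the same strand, for 891 of the 1005 hairpins in the table. Of the 680 that were tested, 87 rose from day 0 to day 14, beside 19.4% of all 62803 probes tested, and 135 fell. The median log2 difference of the 680 was -0.15, close to the -0.13 of all probes tested. Among the 201 members, 3 matched a hairpin, a share close to that of 1062 in 90752 probes over the array. Of these 3, MOUSELNCRNA_76723 and MOUSELNCRNA_81180 overlap each other. The hairpin matches therefore do not set the members apart, and no difference in share was tested. No member shared 25 bases with any of 32851 promoter windows in the RefSeq table, which hold up to 300 bases around a gene's start. Over the whole array, 2964 of 90752 probes shared 25 bases with such a window. The members' share was thus lower than that of the array, and the difference was not tested.

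Taken over all 201 members, the median log2 signal was 4.88 to 4.97 on the day 0 arrays, 5.02 to 5.33 at day 3, 6.42 to 6.80 at day 7 and 7.45 to 7.56 at day 14. The median of all probes tested stayed between 8.07 and 8.23. The number of members well above background was 127 to 159 on the day 0 arrays, 110 to 158 at day 3, 174 to 185 at day 7 and, by the rule, 201 at day 14. Of the members, 104 were well above background on all 12 arrays.

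**Figure D2:**
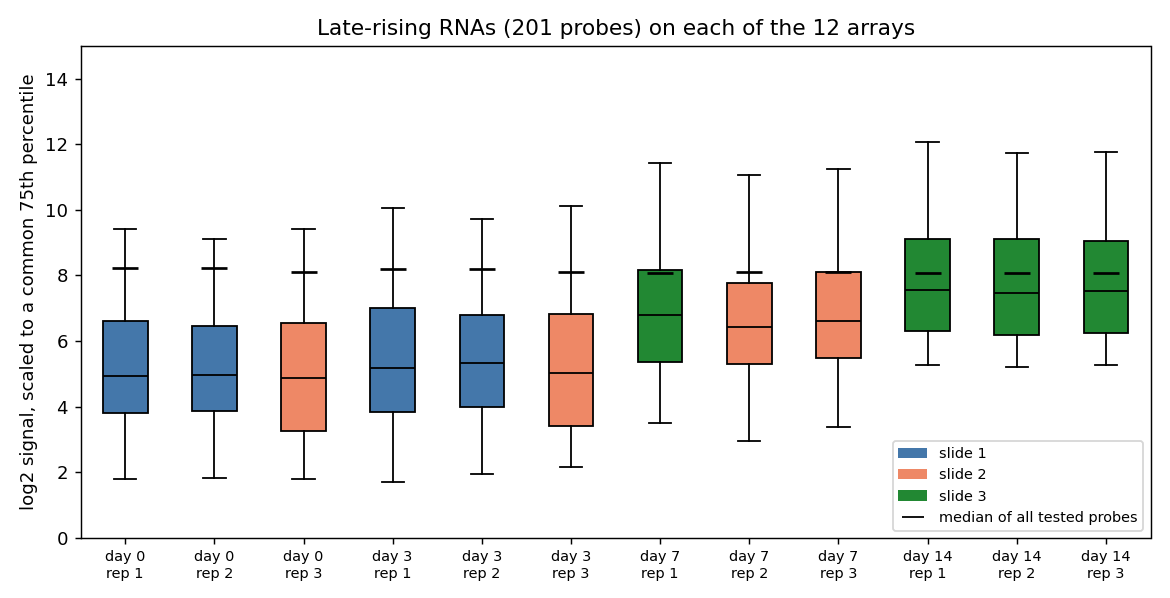
Log2 signal (vertical axis) of the 201 members on each array (horizontal axis). Boxes span the quartiles with the median as a line, whiskers run from the 5th to the 95th percentile, colours mark slides, and short black bars give the median of all tested probes. The members' median goes from about 4.9 at day 0 to about 7.5 at day 14 while that of all probes stays near 8.1.

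By the fit over all arrays, 200 of the 201 members passed as higher at day 14 against day 0, at an adjusted p below 0.05, beside 19.4% of all 62803 probes tested; the rule used this contrast, so the count supports nothing. Their median log2 difference was 2.37, against -0.13 for all probes tested. It was 1.47 with normexp background correction. Among the 170 members with a spot well above background at day 0, differences ranged from 1.51 to 4.91. Under a fit with a fixed slide term, 160 were called, beside 6.63% of all probes, and the median was 2.36. The lowest day 14 array lay above the highest day 0 array for all 201. In the deposited table the members nearest the threshold were MOUSELNCRNA_46349 at 2.00 and MOUSELNCRNA_49127 at 2.01, and just outside it lay MOUSELNCRNA_6370 and MOUSELNCRNA_67079, both also 2.00 after rounding. MOUSELNCRNA_46349 read 6.78, 6.57 and 6.74 at day 0 and 8.64, 8.64 and 8.38 at day 14. At day 3, 45 members were called above day 0 (21.7% of all probes) and 14 below it (22.7% of all probes). The rule's day 3 window was set on the deposited values. In this fit the members' day 3 differences ran from -1.03 to 1.4, so some lay outside it.

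Most members had begun to rise by day 7. From day 0 to day 7, 168 were called higher, beside 20.4% of all probes, and 4 lower, beside 24.0%. Of those 4, 2 had no spot well above background on either day, so they show no fall; the other 2, MOUSELNCRNA_59524 and MOUSELNCRNA_15448, were not called once slide was a fixed term. The median difference was 1.59, or 0.86 with normexp. On slide 2, which holds both days, it was 1.51 with 139 called, beside 8.50% of all probes. By day 7 the median member had covered 65.2% of its day 14 rise. For the 31 members with no spot well above background at day 0, this share rests on signals not above background. The share was below 25% for 25 members, from 25% to 50% for 31, from 50% to 75% for 70, from 75% to 100% for 64 and above 100% for 11. From day 7 to day 14, 89 were called higher, beside 5.61% of all probes, and none lower, with a median difference of 0.82, or 0.50 with normexp. That count fell to 52 with slide as a fixed block, beside 3.30% of all probes, and to 24 among the arrays of slide 3 alone, beside 0.841%; both gave a median of 0.62. The day 7 array on slide 3 read higher than the mean of the 2 on slide 2 for 148 members, with a median gap of 0.24, against -0.02 over all probes well above background at day 14.

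Both steps were called higher for 65 members (0.363% of all probes), only the first for 103 (20.1%), only the second for 24 (5.24%) and neither for 9 (74.3%). The rule bears on both steps, so these counts describe the choice. For every member with values below, other than the 2 with the largest difference in the deposited table, the choice to name it was made after the values were seen.

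**Figure D3:**
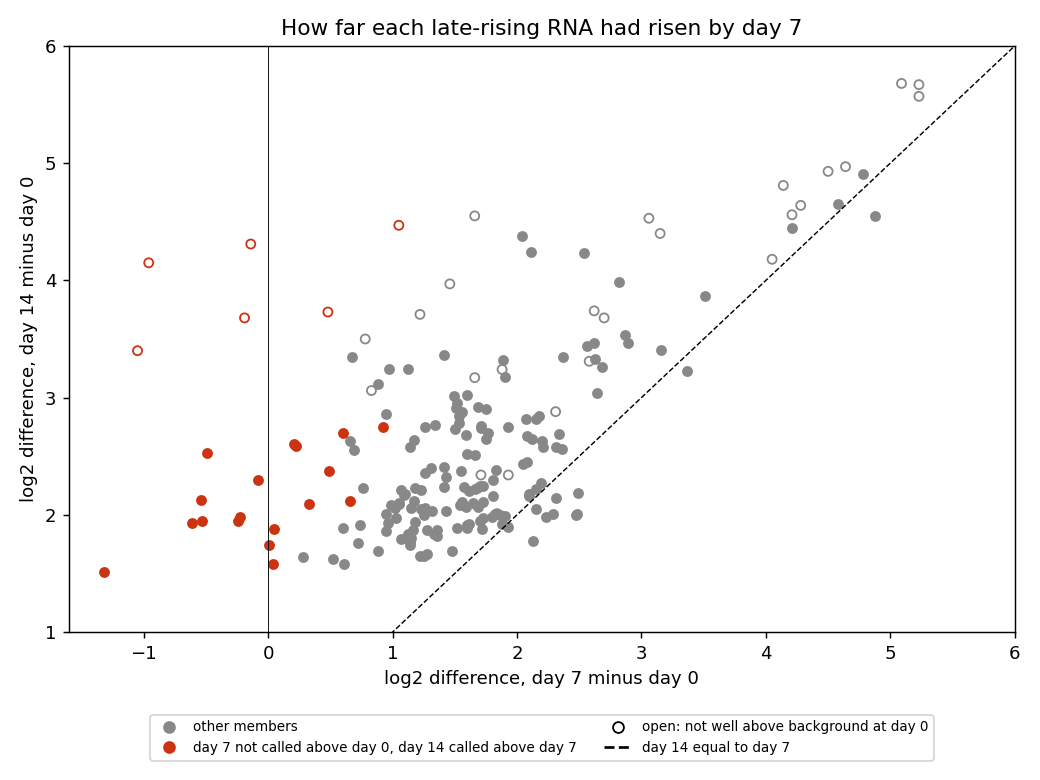
Log2 difference between day 14 and day 0 (vertical axis) against that between day 7 and day 0 (horizontal axis) for the 201 members, 1 point a probe. Open points had no spot well above background at day 0, and red points are the 24 members called between day 7 and day 14 but not between day 0 and day 7. The points with the largest day 7 differences lie near the dashed line of equal day 7 and day 14 levels; the open ones rest on day 0 signals that were not above background. The red points lie to its left, around a day 7 difference of 0.

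The 2 members with the largest difference in the deposited table were both dark at day 0, so their rank rests on signals below background. MOUSELNCRNA_42334 read 2.79, 2.61 and 2.94 at day 0 and 1.70, 1.18 and 2.45 at day 3, where none of its spots was well above background. It then read 8.28, 7.54 and 7.81 at day 7 and 8.64, 8.27 and 8.47 at day 14. Because day 0 gives only a bound, its day 14 mean was at least 28.7-fold higher than at day 0, taking the lowest signal well above background on each day 0 array where the probe read less. MOUSELNCRNA_47579 went from 1.51, 2.35 and 2.34 at day 0 to 7.55, 7.20 and 7.13 at day 7 and 7.94, 7.39 and 7.89 at day 14, at least 17.4-fold above day 0. For both probes the day 7 and day 14 values overlapped. A brighter RNA of this kind was measured well above background on every day 0 array. MOUSELNCRNA_18514 went from 3.94, 3.91 and 4.36 at day 0 to 9.29, 8.54 and 8.71 at day 7 and stood at 9.03, 8.81 and 9.09 at day 14, a 30.1-fold difference from day 0. Its day 0 values were close to the lowest signal well above background, and at day 3 only 1 array was well above background. With a term for slide in the fit, its log2 difference was 4.06 in place of 4.91. Its day 7 and day 14 values overlapped too.

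Altogether 31 members had no spot well above background on any day 0 array. Their bounds ran from at least 2.20-fold to at least 28.7-fold. The other 170 had a median log2 difference of 2.23, and the median over all 201 was also 2.23 with those 31 at their bound.

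Other members climbed in both intervals. MOUSELNCRNA_83557 read 9.41, 8.99 and 9.35 at day 0, 8.92, 8.97 and 9.21 at day 3, 11.71, 10.67 and 11.69 at day 7, and 13.45, 13.37 and 13.63 at day 14. Each of these last groups lay wholly above the one before, and the day 14 mean was 18.9-fold that of day 0. MOUSELNCRNA_24189 read 4.66, 4.76 and 4.72 at day 0 and lower at day 3, at 3.78, 4.03 and 4.14, where only 1 array was well above background. It then went through 6.99, 6.06 and 7.21 at day 7 to 9.21, 8.85 and 9.24 at day 14. On slide 3 alone the day 14 means of MOUSELNCRNA_83557 and MOUSELNCRNA_24189 were 1.77 and 2.11 above the day 7 array. The brightest member, MOUSELNCRNA_32552, read 13.44, 13.48 and 13.88 at day 0 and already 14.66, 14.70 and 14.70 at day 3. It went on to 15.29, 14.79 and 15.48 at day 7 and 16.36, 16.10 and 16.36 at day 14, with no overlap between successive days.

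A smaller set was well above background on all its spots at day 14 alone. On the arrays of days 0, 3 and 7, 12 members were nowhere well above background on all their spots, and 4 of them had no such spot at all. Their day 14 means ran from 5.06 to 6.85, with a median of 5.66, so they stayed dim. MOUSELNCRNA_19378 read 2.64, 2.40 and 3.06 at day 0, 1.70, 1.18 and 2.14 at day 3 and 1.90, 1.86 and 1.47 at day 7, then 6.94, 7.02 and 6.60 at day 14, at least 9.42-fold above day 0. MOUSELNCRNA_17591 read 1.89, 1.78 and 1.45 at day 7 and 6.11, 6.24 and 6.13 at day 14. For MOUSELNCRNA_19378 and MOUSELNCRNA_17591 no spot was well above background before day 14, so the order of the early values has no meaning. The 12 members were picked for detection on all spots at day 14 and not before. That all 12 lay above the slide 3 day 7 array on every day 14 array largely follows from this choice.

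Late rises were also found among RNAs measured at every day. MOUSELNCRNA_16850 read 7.69, 7.76 and 7.41 at day 0, 7.28, 7.18 and 6.91 at day 3, 7.69, 7.33 and 7.59 at day 7 and 9.95, 9.92 and 9.89 at day 14. Its day 3 arrays lay below those of day 0 and day 7, which overlapped, and every day 14 array lay more than 2 log2 units above all earlier ones. MOUSELNCRNA_87888 dipped from 7.15, 7.09 and 7.65 at day 0 to 6.50, 6.02 and 6.50 at day 3, was back at 7.07, 6.72 and 7.40 at day 7 and reached 9.42, 9.34 and 9.05 at day 14. MOUSELNCRNA_59524 stood at 6.13, 6.21 and 5.84 at day 0, at 5.39, 5.10 and 5.84 at day 7, where its highest array read as the lowest of day 0, and at 7.92, 8.04 and 7.99 at day 14. Of the 24 members called in the second interval alone, 19 were also called there with slide as a fixed block, beside 3.30% of all probes. The 24 were picked by that same contrast, so the count is a description.

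Overlapping probes share part of their sequence, can differ elsewhere and are not independent of each other. The 29 members that overlap another member form 13 pairs and 1 set of 3. Over the 15 overlapping pairs of members, the day 14 to day 0 difference disagreed by a median of 0.16 log2 units and by at most 0.60. Both probes of each pair had met the same rule, so this closeness partly follows from the choice. MOUSELNCRNA_1390, MOUSELNCRNA_40489 and MOUSELNCRNA_86880 form the set of 3 and rose by 2.18, 2.22 and 2.16. Among bright probes, MOUSELNCRNA_18583 and MOUSELNCRNA_73381 went from 11.08 and 11.15 at day 0 to 13.75 and 13.80 at day 14. Of the members, 180 have a pair of spots on each array, and for 175 of those the spots differed by less than 0.5 on the median array.

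Some probes that overlap a member missed the rule. A further 14 probes that are no members overlap 11 members, all on the same strand, and the 12 of them that were tested were all called higher at day 14, beside 19.4% of all probes, and 10 with a fixed slide term, beside 6.63%. They were picked for sharing sequence with members, so this is a description. MOUSELNCRNA_73998 is a member with a difference of 2.24, and it overlaps MOUSELNCRNA_60598 (55 shared bases), MOUSELNCRNA_44863 (49) and MOUSELNCRNA_70299 (49), which differed by 4.38, 5.34 and 5.70. These 3 were left out because they were up at day 3. MOUSELNCRNA_73998 read 7.21, 6.97 and 7.04 at day 0, whereas MOUSELNCRNA_70299 read 3.74, 3.50 and 2.92; at day 14 they read 9.46, 9.41 and 9.05, and 9.22, 9.19 and 8.87. Levels of different probes cannot be compared with each other. MOUSELNCRNA_43564, which shares 27 bases with the member, differed by 0.49, or 0.35 with the slide term (limma, adjusted p = 0.313).

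The pools of day 14 did not always read alike. Over the members, the span of the 3 day 14 arrays had a median of 0.41 log2 units, but it exceeded 1 for 25 members and 2 for 9. Replicate 1 was the lowest array for 15 of the 25, the highest for 9 and between the others for 1. MOUSELNCRNA_16239 and MOUSELNCRNA_20501, which overlap, read 9.14 and 9.11 in replicate 1, 11.15 and 11.07 in replicate 2 and 10.82 and 10.73 in replicate 3, against 7.46 and 7.28 as day 0 means. MOUSELNCRNA_21464 had the same order, with 7.83, 9.71 and 9.41. MOUSELNCRNA_66899, which has a single spot, read 9.20 in replicate 1 but 5.35 and 5.39 in the others. MOUSELNCRNA_49902, on 2 spots, read 8.81, 5.25 and 5.13, against 4.67, 4.82 and 4.76 at day 0, and was the 1 member not called from day 0 to day 14. For both, 1 pool of 6 mice makes most of the difference that the rule selected. All 3 day 14 arrays lay on slide 3, so these gaps are not gaps between slides.

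**Figure D4:**
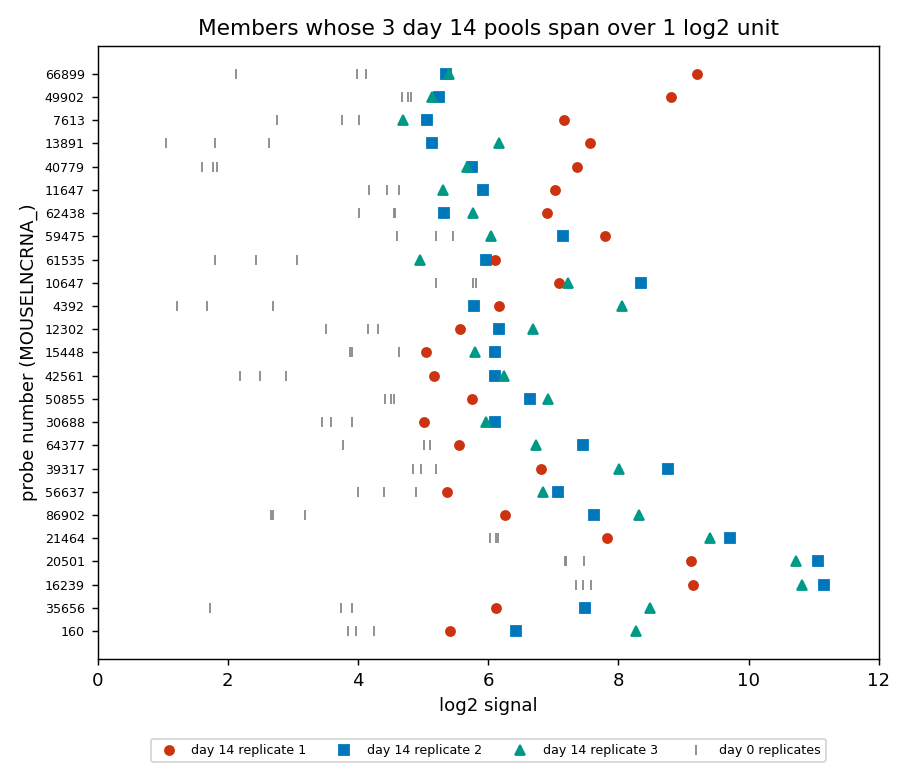
Log2 signal (horizontal axis) of the 25 members whose day 14 arrays span more than 1 log2 unit (vertical axis, by probe number), with 1 symbol for each day 14 replicate and grey ticks for the 3 day 0 arrays. Replicate 1 is the highest array in the upper rows and the lowest in the lower rows, and MOUSELNCRNA_66899 and MOUSELNCRNA_49902 are high in replicate 1 alone.

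In base composition, the members' probes had a median GC content of 38.3% (quartiles 35.0% and 45.0%), against 41.7% (quartiles 35.0% and 45.0%) for the 54671 probes well above background on all day 14 arrays. The median was also 38.3% for the 656 probes that met the other clauses but were already more than 1 log2 unit up at day 3. The polyadenylation signal AATAAA, searched on the probe's own strand, was present in 35 members (17.4%), against 16.3% of the detected probes and 19.2% of the probes up by day 3. A frame free of stop codons over the probe's length was found on that strand for 77.6% of the members and 74.1% of the detected probes. These features are given as a description; no difference between the sets was tested.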

How the data were processed

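Total RNA was labelled with 1 dye and hybridised to 1 array a pool. The scanner files hold spot intensity values from the authors' run of Agilent Feature Extraction (10.7 in the submitters' processing notes, 10.7.1.1 in the headers). Background was subtracted, and multiplicative detrending was applied on the 8 arrays of slides 2 and 3 but not on the 4 of slide 1, as the deposited columns show. The deposited series table holds the authors' log2 values, whose 12 columns share a median of 6.42 and correlated at 0.993 to 1.00 with the log2 scanner signals; how it was normalized is not given in the sources used here. The members were found in that table.

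From the scanner files, outlier spots were left out, repeated spots were averaged as log2 processed signals, and each array was scaled to a 75th percentile of 9.34. A probe was tested if well above background on all 3 arrays of a day (62803 probes). Limma 3.58.1 in R 4.3.3 fitted a mean per day over 12 arrays (8 residual degrees of freedom), with Benjamini-Hochberg adjustment over all probes tested. This fit had no term for slide, so its p-values rest on the spread between arrays of a day. That spread holds differences between pools and between slides together, since the arrays of each earlier day were spread over slides. Those of day 14 shared a single slide. A bound compares the day 14 mean with the day 0 mean after raising each day 0 value to the lowest signal well above background on its array. The fit was tested on simulated data. Same-numbered arrays deviated together for day 0 and day 3, which share slides by number (correlations 0.325, 0.449 and 0.59), but not consistently for the other days compared. Alternatives were other normalizations, detection filters, slide and replicate blocks, and leaving out arrays. The rule for named RNAs took those matched to a gene, the 2 largest rises and the 2 probes on either side of the day 14 threshold. Members and lists were chosen with earlier results of these data known. A planned match to proteins and the cell type marker lists were not used here, since no probe could be tied to a coding gene. RefSeq hairpins and promoter windows were matched in their place.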

Additional observations from a re-analysis of the deposited data

How the results depend on the processing

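Every alternative that could be run kept the direction of the members' median in all 3 comparisons. The rule had set the day 14 rise and bounded day 14 against day 7 on these same arrays. The direction in those comparisons thus largely follows from the choice. Leaving out each array gave 198 to 201 members called for day 14 against day 0, 148 to 170 for day 7 against day 0, 67 to 99 for day 14 against day 7, and 189 to 252 members by the rule, the last highest without day 0 replicate 3. With the replicate block, 200, 170 and 91 members were called; the replicate number does not pair these arrays. For day 3 against day 0, where every same-numbered pair deviated together, the block gave 48 members higher and 14 lower, so no count moved by over 1.5 times. For day 14 against day 0, quantile normalization and the deposited values gave a median log2 difference of 2.67, normexp 1.47 and the arrays of slides 2 and 3 (an alternative added after seeing the data) 2.58. Testing only the 104 members well above background on all arrays left 104 called with a median of 2.23, and 96 called at day 7, as fewer probes were tested. At day 7 the median was 1.77 by quantile normalization and by the deposited values and 0.86 by normexp. For day 14 against day 7, the calls fell to 52 under the fixed slide term and to 24 among slide 3 arrays, both with a median of 0.62, and the median was 0.50 by normexp; the cause was not tested. By the rule's own settings there were 483 members at a day 14 threshold of 1.5, 69 at 3, 108 with day 3 within 0.5, 347 with no condition on background and 104 with detection on all 12 arrays. On the scaled scanner values 151 probes met the rule, 143 of them members. With 1 spot sufficient for detection, added after seeing the data, 230 did. Undoing the detrending, also added then, changed no call count by over 1.5 times. The 3 alternatives for a match to proteins were not run. Signal over background limits the 31 members not well above background at day 0, whose differences are bounds.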
